A study of Rattus norvegicus with 12 samples.

Results

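Oxidative phosphorylation runs on proteins from 2 genomes, and the subunits encoded in the nucleus are described here in rat lung and in endothelial cells whose labelled source is lung. The members are the rows of the deposited table with a symbol that starts with Ndufa, Ndufb, Ndufc, Ndufs, Ndufv, Sdha, Sdhb, Sdhc, Sdhd, Uqcr, Cox4, Cox5, Cox6, Cox7, Cox8 or Atp5, without the Ndufaf and Sdhaf assembly factors and without Cox6a2, if their signal averages 1 or more across the 12 libraries. There were 84 such rows of 19230, and they fell into 39 rows of complex I, 4 of complex II, 8 of complex III, 16 of complex IV and 17 of complex V. Of 87 rows with a fitting symbol, 3 were under the minimum mean: Cox6c-ps1 and Cox7b2 were listed at 0 in every library, and Cox8c had a mean of 0.0949 and a highest value of 1.14. The members just inside it were Ndufs6, with a mean of 2.12, and Cox7a1, with a mean of 3.40. All 84 members were tested in both model fits. A single gene is named in 77 of the rows, while 7 merge a subunit with neighbours or overlapping genes (among them those of Atp5d, Ndufa5, Cox7a2, Ndufb10, Ndufb6 and Atp5sl), so that a difference there cannot be given to the subunit alone.

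Complexes I and II feed electrons from NADH and succinate into ubiquinone, complex III passes them to cytochrome c, complex IV reduces oxygen, and complex V makes ATP from the proton gradient that complexes I, III and IV build. Each complex holds a catalytic core and accessory subunits, a few of its core proteins are encoded by the mitochondrial genome (complex II has none), and several complex IV subunits exist as isoforms used by muscle, lung or testis. Transcription of the nuclear genes is known to respond to the factors NRF1, GABP and YY1 and to their coactivator PGC-1alpha (gene Ppargc1a), and in hypoxia cells are known to shift towards glycolysis. The roles given below are those known from the mammalian complexes, mostly of cattle, mouse and human.

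RNA was sequenced in 4 groups of 3 libraries from Sprague-Dawley rats. The first group is total lung at day 4 of SuHx from rats with the genotype label Ahr-KO, the second is total lung at day 4 of SuHx from wild-type (WT) rats, the third is endothelial cells (ECs) of WT normoxia rats, and the last is total lung of WT rats in normoxia at day 0. In SuHx, rats receive the VEGF receptor blocker SU5416 (Sugen) and are kept in hypoxia, which models pulmonary arterial hypertension; neither agent was given alone in any of these groups, and Ahr-KO lung in normoxia was not analysed here. Ahr encodes the aryl hydrocarbon receptor, a ligand-activated transcription factor. The ECs carry day 4 in their labels and 0 in the column names, and neither their isolation nor the making of the knockout is given in the sources used here. Libraries are named by their group and by the suffix 0, 1 or 2 of the table column, and 3 values in a row follow that order. Nothing in the labels says whether the libraries come from separate animals, so p-values here measure only how these libraries spread, which may be technical.

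Windows of 250 bases before to 50 bases after the annotated start were held by RefSeq (GRCr8) for 73 of the 84 members, matched by symbol or synonym. Entries were missing for, among others, Atp5h, Atp5sl, Cox4i2, Cox6a1, Cox6c, Ndufa10l1, Ndufa8, Ndufb9, Uqcr11 and Uqcrb. The 4 windows printed here are examples, and a link between the motifs and the members' RNA differences was not tested. Ndufa11 and Cox8a are members that passed the test in a SuHx comparison below, and Uqcrc1 and Sdha have the highest mean signal of complexes III and II. Capitals mark letters of the NRF1 consensus motif in Ndufa11 (a pair that overlap), Uqcrc1 (first run, on the opposite strand) and Sdha (3), of the ETS motif CCGGAAG, which GABP binds, in Cox8a (2, both on the opposite strand), and of the YY1 motif AAGATGGCG in Uqcrc1 (last run).
Ndufa11 (GRCr8, chr9:1637364-1637663, plus strand): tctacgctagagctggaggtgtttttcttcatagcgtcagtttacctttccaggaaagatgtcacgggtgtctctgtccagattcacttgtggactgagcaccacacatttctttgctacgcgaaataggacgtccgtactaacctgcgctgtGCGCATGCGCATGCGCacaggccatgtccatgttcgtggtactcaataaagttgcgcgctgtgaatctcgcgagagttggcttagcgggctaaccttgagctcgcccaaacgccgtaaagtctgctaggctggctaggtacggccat
Cox8a (GRCr8, chr1:213833574-213833873, minus strand): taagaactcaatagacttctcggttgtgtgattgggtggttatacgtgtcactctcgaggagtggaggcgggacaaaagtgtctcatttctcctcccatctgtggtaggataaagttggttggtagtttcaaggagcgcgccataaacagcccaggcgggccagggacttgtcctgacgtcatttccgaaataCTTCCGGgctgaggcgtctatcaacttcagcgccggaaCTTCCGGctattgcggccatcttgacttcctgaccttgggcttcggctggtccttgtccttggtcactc
Uqcrc1 (GRCr8, chr8:118467973-118468272, plus strand): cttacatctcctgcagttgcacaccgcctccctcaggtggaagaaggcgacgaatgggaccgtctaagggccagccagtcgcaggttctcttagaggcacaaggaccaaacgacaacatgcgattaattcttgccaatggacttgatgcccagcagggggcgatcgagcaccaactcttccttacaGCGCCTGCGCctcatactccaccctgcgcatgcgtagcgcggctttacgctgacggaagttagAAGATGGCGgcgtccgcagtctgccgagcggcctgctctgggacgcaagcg
Sdha (GRCr8, chr1:30764303-30764602, plus strand): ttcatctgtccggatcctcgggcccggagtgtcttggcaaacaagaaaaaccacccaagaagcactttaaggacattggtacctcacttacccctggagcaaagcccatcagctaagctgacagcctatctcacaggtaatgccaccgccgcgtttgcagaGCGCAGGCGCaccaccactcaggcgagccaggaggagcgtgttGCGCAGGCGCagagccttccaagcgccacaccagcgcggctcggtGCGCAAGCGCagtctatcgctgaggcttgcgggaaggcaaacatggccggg

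Searched on both strands, the NRF1 motif was found in 14 of the 73 member windows (19.2%), against 4.71% of all 27457 windows and 6.09% of the 19005 windows of protein-coding genes. The ETS motif was in 26.0% of member windows, against 9.22% of all and 11.2% of protein-coding windows, and the YY1 motif was in 13.7% of member windows, against 1.93% and 2.29%. The core ACGTG, among those read by hypoxia-inducible factors, was in 28.8% of member windows, against 19.7% and 20.4%. The core GCGTG, read by the aryl hydrocarbon receptor though not by it alone, was in 45.2% of member windows, against 31.1% and 35.8%. The NRF1 motif can overlap itself, as in Ndufa11, and these matches are letters in a window, not sites shown to be bound.

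Signal totals were 20567809 to 27052927 per library and stood for 20036833 to 28592815 reads, since 1 read was worth 0.745 to 1.25 signal units. Ahr itself had 2515, 2523 and 1800 in lungs labelled Ahr-KO, 1996, 3073 and 1740 in WT SuHx lungs, 5697, 4767 and 6086 in ECs, and 5565, 3103 and 3950 in normoxia lungs, so the row did not separate the libraries labelled Ahr-KO from WT SuHx (log2 difference 0.03 ± 0.26 SE, adjusted p = 0.966), and which exons the knockout removes is not given. The 15 cardiac muscle markers varied by library and summed to 7912, 6139 and 32490 in the lungs labelled Ahr-KO, 3856, 3193 and 2994 in WT SuHx, 355 to 547 in ECs, and 1751, 917 and 14191 in normoxia lung. The 8 endothelial markers were all higher in ECs than in lung by limma, yet the alveolar marker Sftpc still had 46859 to 118532 in ECs, against 201197 to 311307 in normoxia lung. Adjusted p-values are from limma on log2(signal + 1) with Benjamini-Hochberg adjustment over all genes tested, and a gene is called at an adjusted p under 0.05; fold changes on this scale understate those of low genes.

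In WT lung at day 4 of SuHx, most nuclear subunits had somewhat more RNA than in normoxia, and few differences were called by limma. The accessory complex I subunits Ndufa8, a protein of the intermembrane space, and Ndufa11, a membrane subunit, rose, while no member fell. The log2 fold change was above 0 for 76 of the 84 members, with a median of 0.33, against 45.7% of all genes tested and a median of -0.04. Only 2 members were called higher, and none was called lower by limma, with or without its trend. At an unadjusted p under 0.05 by limma, 27 of the 84 members lay higher and none lower. Over all genes 4828 of 15234 passed that cutoff with both directions pooled, a share similar to that of the members. How those genes split by direction was not counted, so the 27 higher members have no share of their own direction beside them. Of all 15234 genes tested, 13.5% were called (7.08% higher and 6.39% lower), and 2 of 84 members lies under that share. In 36 members every SuHx library lay above every normoxia library, against 17% of all genes, and in 2 members (Ndufa1 and the Atp5sl row) every one lay below, against 19.7%. Whether a level differs because a cell type makes more of the RNA or because there are more such cells cannot be told apart in bulk tissue.

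Ndufa8 had a signal of 1727, 1709 and 2451 in WT SuHx lung (1962 ± 423, SD, n = 3), against 982, 1096 and 1252 in normoxia lung (1110 ± 136). The groups did not overlap, and the highest value was that of WT SuHx library 2. Its log2 fold change was 0.81 ± 0.17 (SE, adjusted p = 0.0140). Ndufa11 had 1331, 1188 and 1777 in WT SuHx lung (1432 ± 307), against 788, 860 and 881 in normoxia lung (843 ± 49.1). Again the groups stood apart, with a log2 fold change of 0.74 ± 0.19 (adjusted p = 0.0299). These calls depended on single libraries. Without normoxia library 0 no member was called, and the adjusted p was 0.0584 for Ndufa8 and 0.102 for Ndufa11. Ndufa11 also lost its call without normoxia library 1 (adjusted p = 0.0729), WT SuHx library 0 (0.0733) or WT SuHx library 2 (0.0885), and each of these left 1 member called. Leaving out WT SuHx library 1 gave 6 members.

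**Figure D1:**
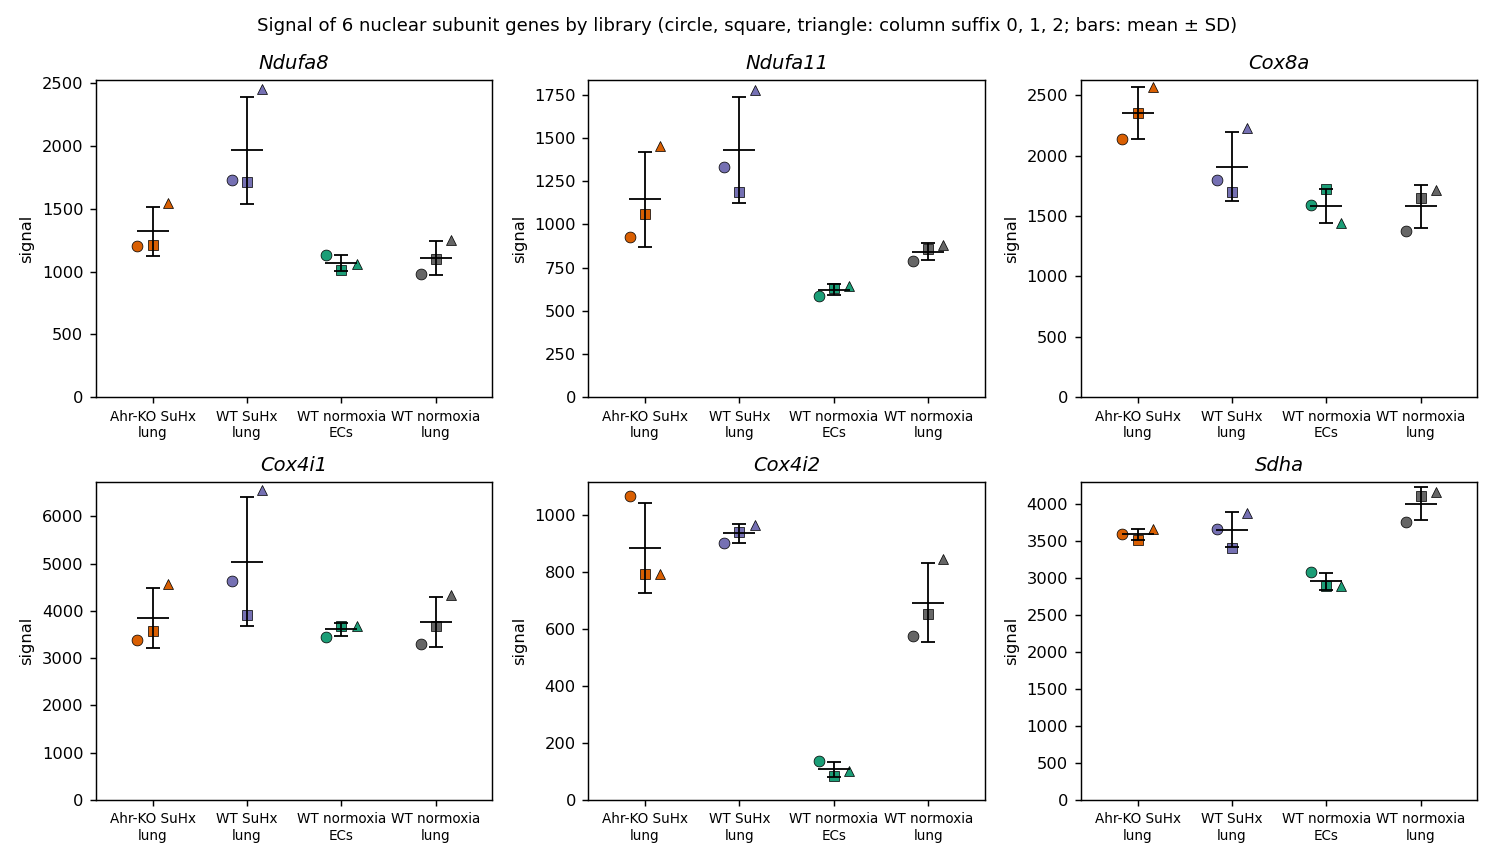
Signal of 6 members in each library of the 4 groups, with circle, square and triangle for column suffixes 0, 1 and 2 and bars for the mean ± SD (n = 3). WT SuHx library 2 is the highest lung library for Ndufa8 (2451), Ndufa11 (1777) and Cox4i1 (6560), and Cox4i2 lies at 81.9 to 135 in ECs and at 575 or more in every lung library.

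Within complex I the 7 core subunits of the table, which carry the flavin, the iron-sulphur clusters and the quinone site, had a median log2 fold change of 0.10 in WT SuHx against normoxia, and none separated the groups. The 30 accessory subunits had a median of 0.35, and 13 of them lay above normoxia in every library and 1 below. Of all genes, 17% lay above normoxia in every library and 19.7% below. Ndufa12, an accessory subunit named after its values were seen, had a log2 fold change close to that of Ndufa8 but no call, with 209, 158 and 274 in WT SuHx and 142, 96.3 and 123 in normoxia lung (0.80 ± 0.28, adjusted p = 0.0862). Ndufab1, the mitochondrial acyl carrier protein, had 654, 642 and 704 in WT SuHx and 538, 543 and 610 in normoxia lung, without overlap but uncalled (0.24 ± 0.13, adjusted p = 0.235). The split into core and accessory subunits was drawn up with the table known, and the difference between their medians was not tested.

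The 4 subunits of complex II, which is also an enzyme of the citric acid cycle, had a median of 0.19 and none was called. Sdha, its flavoprotein, was one of 8 members with a log2 fold change below 0: it had 3655, 3407 and 3881 in WT SuHx and 3750, 4107 and 4155 in normoxia lung (-0.14 ± 0.08, adjusted p = 0.295), so the groups overlapped. In complex III the 3 core subunits had a median of 0.28 and the 5 accessory ones 0.51, again without a call. Uqcrc1, a core protein, had 2678, 2359 and 3229 in WT SuHx and 1946, 2203 and 2672 in normoxia lung (0.28 ± 0.14, adjusted p = 0.203). Its ranges overlapped, while 4 of the 5 accessory subunits lay above normoxia in every library, as did 17% of all genes.

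Complex IV had no called member in this comparison, and 8 of its 16 members lay above normoxia in all libraries, against 17% of all genes. Cox4i2, the isoform of subunit 4 best known from lung, had 900, 940 and 966 in WT SuHx and 575, 654 and 844 in normoxia lung, without overlap (0.45 ± 0.16, adjusted p = 0.0885). Its ubiquitous partner Cox4i1 had 4635, 3923 and 6560 in WT SuHx and 3291, 3686 and 4328 in normoxia lung, with overlap (0.39 ± 0.19, adjusted p = 0.196). The log2 ratio of Cox4i2 to Cox4i1 within a library was -2.40 ± 0.35 in WT SuHx and -2.45 ± 0.09 in normoxia lung (SD, n = 3 each), a difference of 0.06 (exact two-sided permutation p = 0.8). With 3 against 3 libraries this test cannot go below 0.1. Ndufa4, counted in complex I here by its symbol but now placed in complex IV, had 2248, 2013 and 2659 in WT SuHx and 1559, 1753 and 1936 in normoxia lung (0.39 ± 0.19, adjusted p = 0.188). Its hypoxia-inducible relative Ndufa4l2 had 365, 405 and 308 in WT SuHx and 347, 319 and 483 in normoxia lung, so the groups overlapped (-0.08 ± 0.22, adjusted p = 0.836). Cox6b2, the testis isoform of subunit 6b, had 184, 122 and 239 in WT SuHx and 118, 101 and 126 in normoxia lung (0.61 ± 0.26, adjusted p = 0.137), and Cox7a2l, which joins complexes III and IV into supercomplexes, had a log2 fold change of 0.11 ± 0.17 (adjusted p = 0.685).

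In complex V, the 3 small membrane subunits Atp5i, Atp5j2 and Atp5l (subunits e, f and g) had the highest median of its parts, 0.60. Each lay above normoxia in every library, as did 17% of all genes, and none was called. Medians were 0.42 in the peripheral stalk, 0.35 in the 3 genes of the c ring and 0.23 in the F1 head. Atp5b, the catalytic beta subunit, had 16617, 15275 and 19832 in WT SuHx and 12782, 14321 and 16988 in normoxia lung, with overlap (0.23 ± 0.15, adjusted p = 0.313). Atp5s and Atp5sl carry old synthase names, and Atp5sl is now known as a complex I assembly factor (Dmac2). Atp5s had 178, 163 and 185 in WT SuHx and 131, 150 and 141 in normoxia lung (0.32 ± 0.15, adjusted p = 0.192), and the merged Atp5sl row had 576, 628 and 527 in WT SuHx and 643, 672 and 683 in normoxia lung (-0.21 ± 0.10, adjusted p = 0.192). Both separated the groups, in opposite directions.

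**Figure D2:**
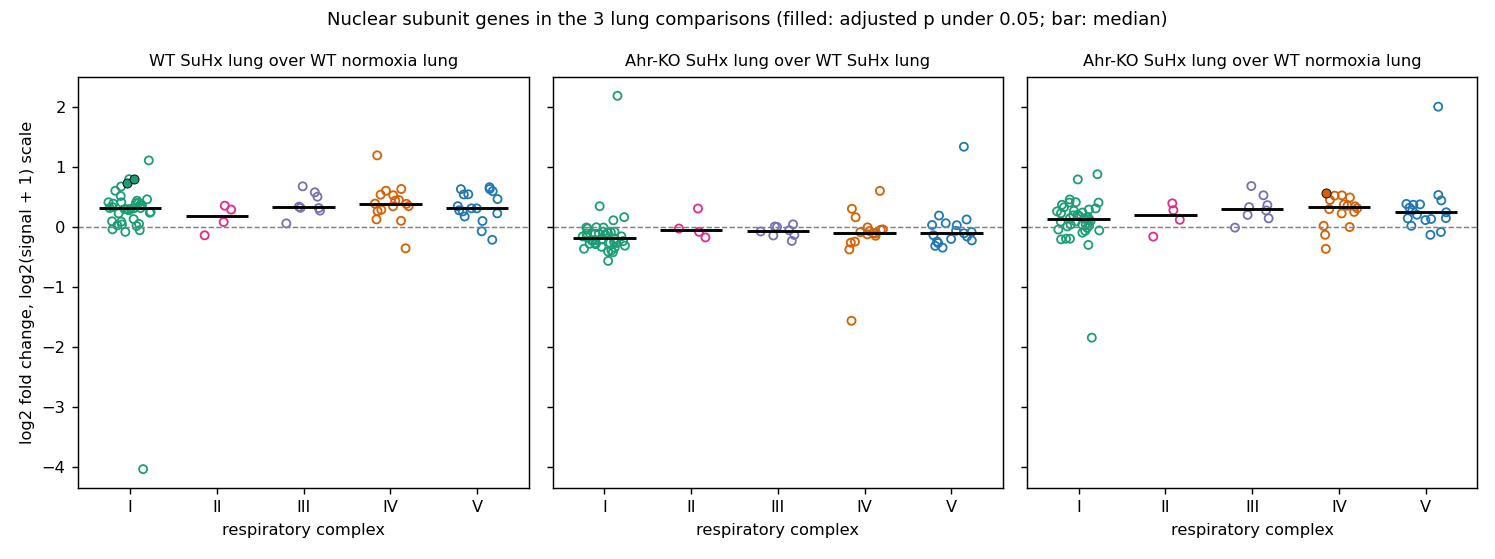
Log2 fold change of the 84 members by respiratory complex in the 3 lung comparisons, on the log2(signal + 1) scale, with filled points for members called by limma and bars for the median of a complex. Most points lie above 0 in WT SuHx against normoxia (76 of 84) and below 0 in Ahr-KO against WT SuHx (67 of 84), and 2, 0 and 1 members are called.

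The shift of the members was uneven between libraries of a group. Summed over the 84 rows, the signal was 155443, 142327 and 190443 in WT SuHx and 122962, 131595 and 147765 in normoxia lung, so WT SuHx library 1 lay below normoxia library 2. WT SuHx library 2 was the highest of the 9 lung libraries for 44 members, and normoxia library 0 was the lowest for 44. The median log2 fold change of the members was 0.20 without WT SuHx library 2. The summed signal of cytosolic ribosomal protein genes ranked the libraries of these 2 groups in the same order, with 466655, 416897 and 560712 in WT SuHx and 375200, 393806 and 447079 in normoxia lung, and the part of this pattern in the members' values was not tested. With the cardiac markers (their mean log2 level) as covariate, 16 members were called higher, and 11 were when normoxia library 2 and Ahr-KO library 2 were left out together. Calls over all genes also rose with the covariate, as counted in the closing section. For the second setting the count of all genes is not given here, so neither rise is read as particular to the members.

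Other lists of energy metabolism were read in the same comparison of WT SuHx with normoxia. Of 18 glycolysis genes 10 rose and none fell, with a median of 0.49. Eno1 (enolase) had 5727, 5415 and 5966 in WT SuHx and 3340, 4019 and 3451 in normoxia lung (0.67 ± 0.10, adjusted p = 0.00386), and Pdk1, a kinase that holds back pyruvate dehydrogenase, rose by 0.48 ± 0.14 (adjusted p = 0.0478). No other of the 4 pyruvate dehydrogenase kinases was called. Ppargc1a fell to 113, 151 and 124 in WT SuHx, against 315, 322 and 312 in normoxia lung (-1.29 ± 0.16, adjusted p = 0.00146), and these groups were far apart. The other 14 of 15 biogenesis regulators were not called, and the median of that list was -0.07. Of 17 genes of the citric acid cycle and pyruvate dehydrogenase none was called, of 47 assembly factors the row of the copper chaperone Cox17, merged with Popdc2, fell, and of 21 membrane, carrier and import proteins Vdac3 and Hspd1 rose. Among 73 mitochondrial ribosomal protein genes 4 rose, with a median of 0.25. Of 8 erythroid markers 7 rose, with a summed signal of 4605 to 7737 in WT SuHx and 763 to 1354 in normoxia lung, and 3 of 4 smooth muscle markers rose; the part of these cells in the members' values was not tested.

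The 2 subunits of the mitochondrial genome that could be read in every library had log2 fold changes below 0. ND1, a membrane subunit of complex I, had 36638, 32575 and 26561 in WT SuHx and 41749, 46074 and 42086 in normoxia lung, and ND2 had 30267, 29993 and 17598 in WT SuHx and 41864, 53078 and 38685 in normoxia lung. Every WT SuHx library lay below every normoxia library in both, yet neither passed the test (ND1 -0.45 ± 0.19, adjusted p = 0.142, and ND2 -0.81 ± 0.26, adjusted p = 0.0659). ND2 was called without Ahr-KO library 2 (adjusted p = 0.0491), a library in which 5 of the 7 mitochondrial rows are listed at 0 while ND1 has 61147 and ND2 63433. For that reason the other mitochondrial rows are not compared for the lungs labelled Ahr-KO. In the limma fit without that library, WT SuHx against normoxia gave -0.21 for the merged row of ATP6, ATP8, COX2, COX3, ND3, ND4 and ND4L (adjusted p = 0.594). The log2 fold change was -0.36 for ND6, -0.40 for COX1, -0.63 for CYTB and -4.92 ± 2.64 for ND5, and none of these was called. The summed nuclear members over ND1 plus ND2 gave 2.32, 2.27 and 4.31 in WT SuHx and 1.47, 1.33 and 1.83 in normoxia lung, which do not overlap; this ratio has no scale between genes and was compared only across libraries, without a test.

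**Figure D3:**
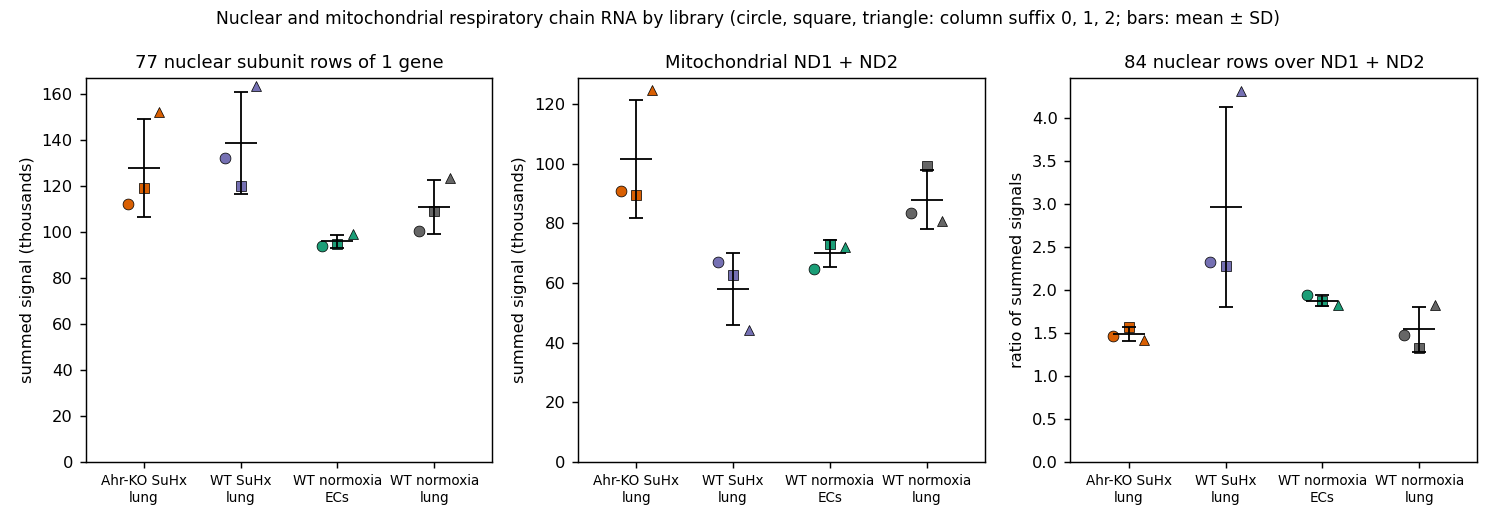
Summed signal of the 77 nuclear rows that name 1 gene (left), of mitochondrial ND1 plus ND2 (middle), and the summed signal of all 84 nuclear rows over ND1 plus ND2 (right), per library with the mean ± SD (n = 3). The ratio lies at 2.27 to 4.31 in WT SuHx and at 1.33 to 1.94 in the other 3 groups. The value of 1.42 belongs to Ahr-KO library 2, in which 5 of the 7 mitochondrial rows are listed at 0.

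Between the SuHx lungs labelled Ahr-KO and WT, no nuclear subunit was called in either direction by limma, with or without its trend. At an unadjusted p under 0.05, 2 members lay higher and 8 lower. Over all genes 2078 of 15234 passed that cutoff in either direction, a slightly larger share than that of the members with both directions pooled. Their split by direction was not counted. Of all genes tested, 0.499% were called (0.197% higher and 0.302% lower). The members' log2 fold changes were above 0 in 17 of 84 and below 0 in 67, with a median of -0.11, against 53.3% above 0 and a median of 0.02 over all genes. Sdhc and Ndufs1 lay above WT SuHx in every library (11.7% of all genes did), and Ndufa8, Ndufv1, Ndufv3 and Atp5a1 lay below in every library (10.2% of all genes). The median depended on single libraries, and its sign on WT SuHx library 2: it was -0.03 without Ahr-KO library 0, -0.06 without Ahr-KO library 1, -0.27 without Ahr-KO library 2, -0.14 without WT SuHx library 0, -0.22 without WT SuHx library 1 and 0.01 without WT SuHx library 2. With the cardiac markers as a covariate it was -0.35.

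Ndufa8 had the smallest p of the members, with 1203, 1211 and 1542 in the lungs labelled Ahr-KO, against 1727, 1709 and 2451 in WT SuHx lung. The groups did not overlap, and the log2 fold change was -0.56 ± 0.17 (adjusted p = 0.199). Sdhc, which anchors complex II in the membrane, had 2465, 2449 and 2793 in the lungs labelled Ahr-KO, against 2306, 2094 and 1823 in WT SuHx lung (0.31 ± 0.11, adjusted p = 0.281). Cox4i1 had 3386, 3569 and 4568 in the lungs labelled Ahr-KO, against 4635, 3923 and 6560 in WT SuHx lung, with overlap (-0.37 ± 0.19, adjusted p = 0.430). Ndufa4l2 had 551, 513 and 335 in the lungs labelled Ahr-KO, against 365, 405 and 308 in WT SuHx lung, again with overlap (0.35 ± 0.22, adjusted p = 0.498). The log2 ratio of Ndufa4l2 to Ndufa4 was -2.31 ± 0.78 in the lungs labelled Ahr-KO and -2.68 ± 0.40 in WT SuHx lung (SD, n = 3 each, exact two-sided permutation p = 0.5, adjusted p = 0.9 over 12 ratios and comparisons).

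The remaining energy genes gave few calls here too. None of the 18 glycolysis genes passed, although 5 lay below WT SuHx in all libraries and 1 above, against 10.2% and 11.7% of all genes. The lowest adjusted p by limma was 0.0595, for the glycolytic enzyme Aldoa. Aldoa had 9136, 9095 and 8991 in the lungs labelled Ahr-KO, against 13189, 13597 and 16089 in WT SuHx lung. ND1 had 46654, 43832 and 61147 in the lungs labelled Ahr-KO, above each of the WT SuHx libraries given before, but its log2 fold change of 0.66 ± 0.19 was not called (adjusted p = 0.194), and ND2 had 44094, 45614 and 63433 (1.00 ± 0.26, adjusted p = 0.153). The highest value of both is that of Ahr-KO library 2, the library with the other mitochondrial rows at 0. Without it the log2 fold changes were 0.51 ± 0.18 for ND1 (limma, adjusted p = 0.243) and 0.83 ± 0.26 for ND2 (adjusted p = 0.219). The members over ND1 plus ND2 gave 1.47, 1.57 and 1.42 in the lungs labelled Ahr-KO, against 2.32, 2.27 and 4.31 in WT SuHx lung, also without overlap. The value of 1.42 is again that of Ahr-KO library 2, where ND1 plus ND2 reached 124580, against 90749 and 89446 in Ahr-KO libraries 0 and 1. Of 15 cardiac markers 12 lay above WT SuHx in every library, against 11.7% of all genes, and none was called by limma (lowest adjusted p = 0.104).

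The SuHx lungs labelled Ahr-KO against normoxia lung gave 1 called nuclear subunit, and this comparison shares its normoxia libraries with that of WT SuHx. One member, Cox8a, the ubiquitous isoform of the smallest complex IV subunit, rose and none fell, against 9.75% of all genes called (5.95% higher and 3.8% lower). At an unadjusted p under 0.05, 14 members lay higher and 1 lower. Over all genes 3966 of 15234 passed that cutoff in either direction, a larger share than that of the members with both directions pooled. Their split by direction was not counted. The log2 fold change was above 0 for 68 of 84, with a median of 0.22, against 45.8% and a median of -0.03 over all genes, and 16 members lay above normoxia in every library, against 15.1% of all genes. Ndufv3 and Sdha lay below in every library, against 17.9% of all genes.

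Cox8a had 2138, 2355 and 2567 in the lungs labelled Ahr-KO (2353 ± 214, SD, n = 3), against 1375, 1650 and 1714 in normoxia lung (1580 ± 180). The groups did not overlap, and the log2 fold change was 0.58 ± 0.13 (SE, adjusted p = 0.0246). In WT SuHx lung it had 1796, 1698 and 2231, a log2 fold change of 0.27 ± 0.13 against normoxia (adjusted p = 0.190), and the direct difference between the lungs labelled Ahr-KO and WT SuHx was 0.31 ± 0.13 (adjusted p = 0.349). The call was lost without normoxia library 0 (adjusted p = 0.0919), normoxia library 1 (0.0532), Ahr-KO library 1 (0.0828) or Ahr-KO library 2 (0.0820), each of which left no member called. Leaving out normoxia library 2 gave 2 called members. With the cardiac markers as a covariate its adjusted p was 0.153. The median over members was 0.06 without Ahr-KO library 2 and 0.02 with the covariate. Ppargc1a fell here too, to 177, 152 and 140 in the lungs labelled Ahr-KO, against 315, 322 and 312 in normoxia lung (-1.02 ± 0.16, adjusted p = 0.00463), and Fh, the fumarase of the citric acid cycle, rose by 0.41 ± 0.10 (adjusted p = 0.0298). The other 14 of 15 biogenesis regulators and the other 16 of 17 genes of the citric acid cycle and pyruvate dehydrogenase were not called.

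A few members varied between libraries by far more than the rest. Ndufa1, a membrane subunit of complex I encoded on the X chromosome in mammals, had 1.55, 263 and 380 in the lungs labelled Ahr-KO, 130, 2.29 and 5.21 in WT SuHx, 1.14, 2.41 and 231 in ECs, and 222, 226 and 233 in normoxia lung. Each group but normoxia lung held libraries near 0 and others at or above 130, and no comparison was called (log2 fold change -4.04 ± 1.85 for WT SuHx against normoxia, adjusted p = 0.168). Atp5f1, the b subunit of the peripheral stalk, had 54.2, 22.1 and 334 in the lungs labelled Ahr-KO, 49.2, 20.6 and 23.1 in WT SuHx, 44.4, 49.4 and 34.9 in ECs, and 14.3, 23.9 and 16.1 in normoxia lung, so 1 library stood far above all others. Cox7a1, the muscle isoform of subunit 7a, was at 29.3 in WT SuHx library 0 and at 2.30 or less in the other 11 libraries. Ndufs6, a zinc-binding accessory subunit, was at 6.24 or less in all 12. The cause of this spread was not tested.

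Cox8b, the heart and skeletal muscle isoform of subunit 8 in rodents, had 52.6, 50.5 and 372 in the lungs labelled Ahr-KO, 44.5, 57.4 and 109 in WT SuHx, and 56.5, 64.8 and 159 in normoxia lung. Its highest values were in Ahr-KO library 2 and normoxia library 2, those with the highest cardiac marker sums. Cox6a2, the muscle isoform left out of the members, had 780 and 218 in the same 2 libraries, and the cardiac myosin gene Myh6 had 4900 and 2880 there and 0 in each WT SuHx library. The brown fat marker Ucp1 had 172 in Ahr-KO library 2 and 0.767 or less in the other 11 libraries. No lung comparison of Cox8b was called (adjusted p from 0.735 to 0.862), and none was with the cardiac markers as a covariate. The log2 fold change of Cox8b was then -0.99 in the lungs labelled Ahr-KO against WT SuHx, where it was 0.61 without the covariate. Against normoxia it was -0.91 with and 0.26 without the covariate in the lungs labelled Ahr-KO, and 0.08 with and -0.35 without it in WT SuHx lung.

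**Figure D4:**
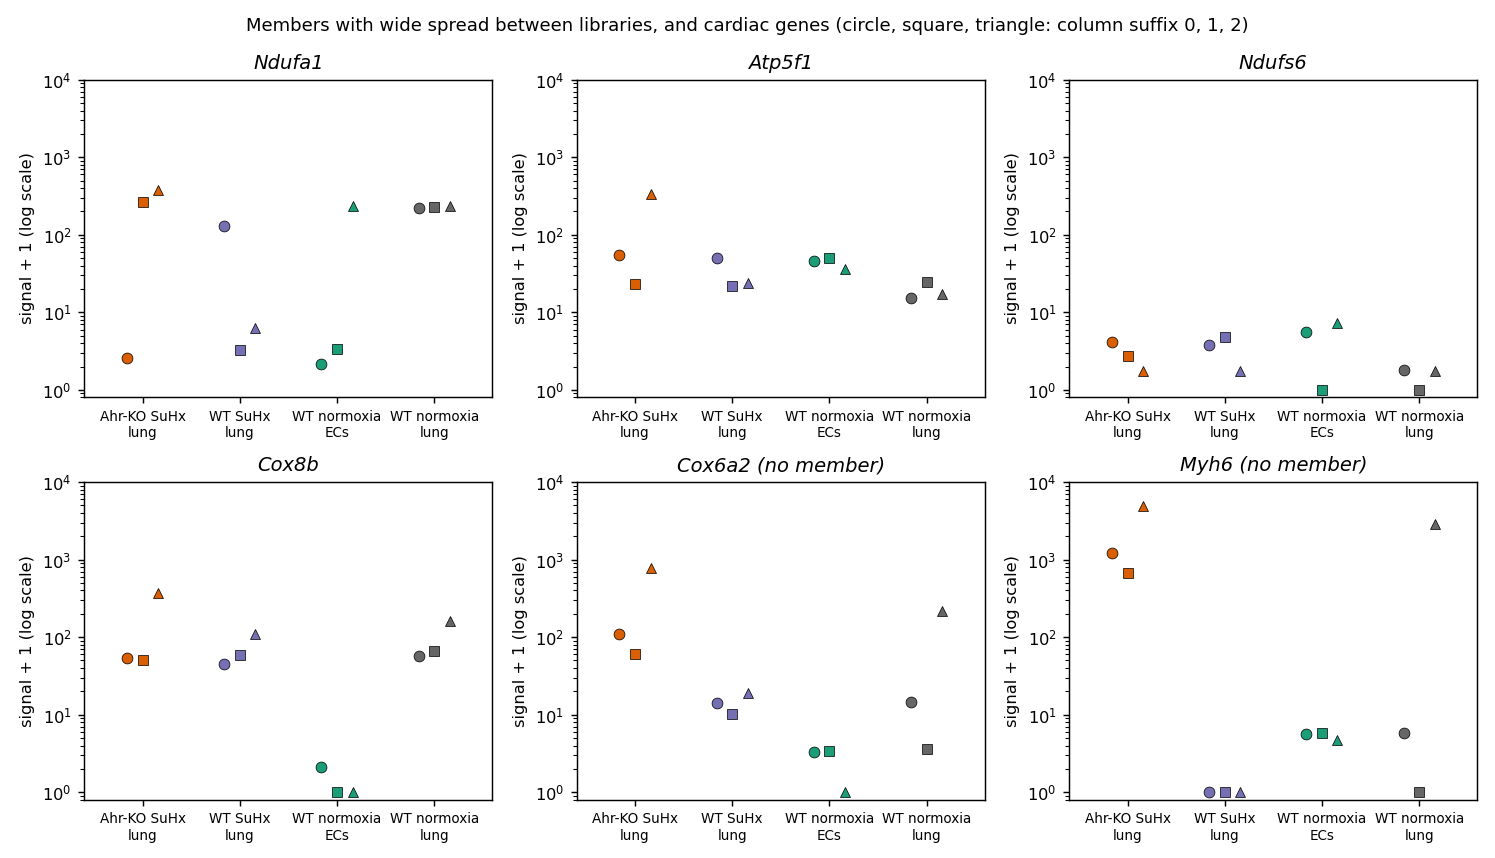
Signal plus 1 on a log scale per library for 3 members with wide spread or very low signal (Ndufa1, Atp5f1, Ndufs6), for the muscle isoform Cox8b, and for Cox6a2 and Myh6, which are no members. Ndufa1 lies near 222 to 233 in normoxia lung and splits within the other groups, and Cox8b, Cox6a2 and Myh6 are highest in Ahr-KO library 2 (372, 780 and 4900).

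ECs in normoxia differed from normoxia lung in more members, mostly downwards: 33 were lower and 5 higher by limma, against 30.1% and 26.1% of all genes and 56.2% called in all. The median log2 difference was -0.23, against -0.05 over all genes. In 42 members every EC library lay below every lung library, against 35.1% of all genes, and in 7 above, against 30.4%. Complex I had 19 of its 39 members lower and 1 higher, complex II 3 of 4 lower, complex III 2 of 8 lower, complex IV 2 of 16 lower and 2 higher, and complex V 7 of 17 lower and 2 higher. Counts of higher members fell to 3 without normoxia library 0, normoxia library 1 or EC library 1. These are isolated cells against whole tissue: all 8 alveolar epithelial markers were lower in ECs and the leukocyte marker Ptprc was higher by a log2 difference of 1.32, and their part in the members' values was not tested.

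The differences with the smallest adjusted p were in complex IV isoforms. Cox4i2 had 135, 81.9 and 102 in ECs (107 ± 27.0, SD, n = 3), against 575, 654 and 844 in normoxia lung (691 ± 138), a log2 difference of -2.70 ± 0.23 (adjusted p = 0.000113), or 6.48 times less. Cox4i1 had 3449, 3687 and 3688 in ECs, against 3291, 3686 and 4328 in normoxia lung, with overlap (-0.05 ± 0.11, adjusted p = 0.705). The log2 ratio of Cox4i2 to Cox4i1 was -5.10 ± 0.41 in ECs and -2.45 ± 0.09 in normoxia lung, a difference of -2.64 (exact two-sided permutation p = 0.1, the smallest this design allows, adjusted p = 0.6). Cox8b had 1.14, 0 and 0 in ECs, which was 1 read in all, against 56.5, 64.8 and 159 in normoxia lung, or 354 reads. It was thus 238 times lower in ECs, with a counting interval of 42.4 to 9422 (95%, exact, counting error only), and it was called (adjusted p = 0.00014). Normoxia library 2, with its cardiac RNA, held the highest of the lung values. Cox6b2 had 88.8, 74.7 and 51.2 in ECs, against 118, 101 and 126 in normoxia lung, below in every library but uncalled (-0.70 ± 0.26, adjusted p = 0.0507).

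**Figure D5:**
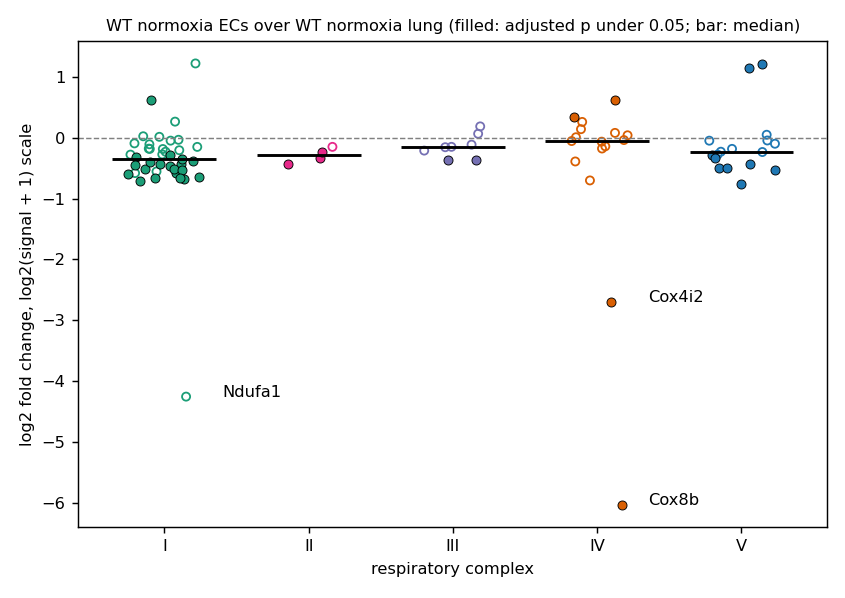
Log2 difference of the 84 members between ECs and normoxia lung by respiratory complex, on the log2(signal + 1) scale, with filled points for members called by limma and bars for the median of a complex. Cox8b (-6.04), Ndufa1 (-4.26, not called) and Cox4i2 (-2.70) lie far below the other members, and 33 members are called lower and 5 higher.

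In complex I, Ndufa2, an accessory subunit of the peripheral arm, fell to 358, 364 and 444 in ECs, against 579, 578 and 748 in normoxia lung (-0.70 ± 0.15, adjusted p = 0.00619), and the groups did not overlap. Ndufa11 had 586, 631 and 647 in ECs, against 788, 860 and 881 in normoxia lung (-0.44 ± 0.10, adjusted p = 0.00661), while Ndufa8 had 1135, 1013 and 1060 in ECs, against 982, 1096 and 1252 in normoxia lung, with overlap (-0.05 ± 0.11, adjusted p = 0.737). Ndufa4 had 1338, 1404 and 1445 in ECs, against 1559, 1753 and 1936 in normoxia lung (-0.32 ± 0.10, adjusted p = 0.0287). The ranges of Ndufa4l2 overlapped, with 192, 214 and 407 in ECs, against 347, 319 and 483 in normoxia lung.

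In complex II, Sdha had 3083, 2892 and 2887 in ECs, against 3750, 4107 and 4155 in normoxia lung (-0.44 ± 0.08, adjusted p = 0.00309), and Sdhc and Sdhd were also lower, by log2 differences of -0.33 ± 0.10 (adjusted p = 0.0225) and -0.24 ± 0.08 (adjusted p = 0.0432). In complex III the accessory subunits Uqcr10 (-0.37 ± 0.11, adjusted p = 0.0194) and Uqcr11 (-0.37 ± 0.09, adjusted p = 0.0119) were lower. The core subunits Uqcrc2 (-0.21 ± 0.09, adjusted p = 0.0863) and Uqcrc1 (0.19 ± 0.12, adjusted p = 0.228) were not called.

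Of the 5 members higher in ECs, 3 are merged rows, namely those of Atp5d, Ndufb6 and Cox7a2. The Atp5d row, which also holds Cirbp, Efna2, Midn and RGD1562114, had 14255, 22909 and 14258 in ECs, against 7927, 7168 and 7526 in normoxia lung (1.15 ± 0.19, adjusted p = 0.00201). The Cox7a2 row, shared with Tmem30a, had 8413, 9647 and 8960 in ECs, against 6767, 6913 and 7575 in normoxia lung (0.35 ± 0.10, adjusted p = 0.0185), and this turned to -0.12 under quantile normalization. The single-gene rows were Atp5f1 (1.22 ± 0.31, adjusted p = 0.0132) and Cox7a2l2, for which no role is known with certainty (0.62, adjusted p = 0.0431). Of the 77 rows with 1 gene, 2 were thus higher and 32 lower. Atp5s fell to 85.6, 110.0 and 59.1 in ECs, against 131, 150 and 141 in normoxia lung (-0.76 ± 0.26, adjusted p = 0.0378), and Atp5b had 13512, 13884 and 13497 in ECs, against 12782, 14321 and 16988 in normoxia lung, with overlap (-0.10 ± 0.13, adjusted p = 0.539).

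The glycolysis list ran the other way in ECs, with 9 of 18 genes higher and 2 lower, and the lactate exporter Slc16a3 had 1554, 2198 and 2441 in ECs, against 285, 258 and 391 in normoxia lung (2.72 ± 0.22, adjusted p = 8.4e-05). Of 74 mitochondrial ribosomal protein genes 40 were lower and 5 higher, and of 98 cytosolic ones 30 were higher and none lower. The members' summed signal was 125558, 136702 and 130953 in ECs, against 122962, 131595 and 147765 in normoxia lung, and these overlapped. Over the rows of 1 gene alone the sums were 94073, 94845 and 99084 in ECs, each below the 100432, 109105 and 123470 of normoxia lung.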

How the data were processed

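The deposited table holds 1 column per library with a signal per gene row; from the values, it is an estimated read count divided by 1 factor per library, since 79.9% to 81.7% of a library's values were whole multiples of 1 read within 0.05. Per the submitters' processing notes, FastQC and the rn6 build were used; the aligner, counter and normalization: not given in the sources used here. Columns were matched to groups by name, and their suffixes are not the replicate numbers of the labels. Of its rows, 1046 name more than 1 gene.

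The deposited signal was taken as log2(signal + 1), rows averaging 1 or more in the libraries of a fit were kept, and limma 3.58.1 (R 4.3.3) was fitted with a mean-variance trend: 1 fit of the 9 lung libraries for 3 comparisons, and 1 of 6 libraries for ECs against normoxia lung. P-values were adjusted by Benjamini-Hochberg over all genes tested. Isoform ratios were compared by exact permutation. The fits were tested on simulated data. Counting intervals cover counting error only. Members and gene lists were chosen with earlier results of these data known. Members named in full were those called in lung, those with the highest mean signal of each complex, isoform and accessory members on a list, and in ECs the 3 largest differences per complex; others, such as Ndufa12, Ndufs1, Ndufv1, Ndufv3, Atp5a1, Cox7a2l2 and the Ndufb6 row, were named after their values were seen. The values of 1 member are not reported here. Alternatives changed the trend, scaling, filter, pseudocount, libraries, block, covariate and call rule. Promoter windows and symbols came from RefSeq GRCr8, which is not the build of the table.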

Additional observations from a re-analysis of the deposited data

How the results depend on the processing

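Of the values of single genes under the alternatives, 1415 stayed on their side of the threshold (1349 with the same sign and 66, all uncalled, with the other), 65 lost a call and 23 gained one. The called Cox7a2 row in ECs turned to -0.12 under quantile normalization. In WT SuHx against normoxia, the 2 members called higher became 1 without the trend, 4 with all 12 libraries in the fit, 11 without normoxia library 2 and Ahr-KO library 2, 16 with the cardiac covariate, 0 with a minimum absolute log2 fold change of 1, and 0 to 6 with 1 library left out. All genes called, 2052 of 15234 tested, became 3100 with the covariate, 748 with the fold change minimum and 862 to 2277 with 1 library left out. For the other settings the count of all genes is not given here, so those member counts have no share beside them.

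In Ahr-KO against WT SuHx, the 76 genes called became 47 without the trend, 126 with all 12 libraries, 29 with the covariate and 32 to 55 with 1 library left out. In Ahr-KO against normoxia, the 1 member higher became 0 without the trend, with the covariate or with the fold change minimum, 2 under quantile normalization, median-ratio scaling or with all 12 libraries, and 0 to 2 with 1 library left out; 1485 genes became 570 with the covariate, 659 with the minimum and 721 to 1882 with 1 library left out. In ECs the fold change minimum left 2 members higher, 2 lower and 4409 genes of 8539, and leaving out 1 library gave 3 to 6 members higher and 22 to 33 lower. The log2 ratio of Cox7a1 to Cox7a2 in ECs against lung, -0.74, was -1.54 with a pseudocount of 0.1.

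The suffixes were not taken to pair libraries, since same-suffix correlations of deviations between lung groups ran from -0.0402 to 0.216 and were not all over 0.1. Each normoxia lung library correlated best with the Ahr-KO library of its own suffix (0.0866 to 0.216), which is a hint from the data, not the design; between the other lung groups this did not hold for every suffix. With the suffix as a replicate block, 34 members were called higher in WT SuHx against normoxia, with 3385 genes in all. With the same block 1 member was called lower in Ahr-KO against WT SuHx, and 13 were higher and 1 lower in Ahr-KO against normoxia. The counts of all genes under the block are not given here for the Ahr-KO comparisons, so these member counts have no share beside them. At this depth members near 0, such as Ndufs6 and Cox7a1, rest on a few reads in most libraries. The causes of these changes were not tested.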
